A study of Mus musculus with 4 samples.

Results

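Genes of lipid efflux and storage were followed across 4 myeloid populations that had been sorted out of large-intestinal lamina propria, the layer beneath the gut epithelium, of C57BL/6J mice. The 10 genes are Abca1, Abcg1, Apoe, Lpl, Trem2, Gpnmb, Nr1h3, Pparg, Plin2 and Fabp4. Every probe set whose only gene symbol was one of these was taken, which gave 17 of 22690 probe sets and 10 of 12393 genes. Both CX3CR1high macrophages and CX3CR1- cells were CD11c+ CD11b+, the former rich in the fractalkine receptor CX3CR1 and the latter without it. CD11b+ cells carried CD11b without CD11c, and DCs (dendritic cells) were CD11chigh and lacked CD11b. The sample titles call the CD11b+ cells Mf, the CX3CR1- cells DC and the DCs CD103. No treatment or genotype other than the strain is given for any population, and neither is the age of the mice or how many were used. Each population was measured on 1 Affymetrix 3' array, so there were no replicates and no test could be run, and precision is limited by having so few arrays.

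Macrophages take up lipid from lipoproteins and dead cells and must store it or pass it on. Oxysterols made from the cholesterol they take up activate the nuclear receptor LXRα, the product of Nr1h3, which raises transcription of the exporters ABCA1 and ABCG1 and of apolipoprotein E, the carrier that accepts the exported sterol. Fatty acids activate PPARγ, the product of Pparg, which raises the fatty acid carrier FABP4, while perilipin 2, the product of Plin2, coats the droplets in which sterol and fatty acid esters are kept. TREM2, a lipid-sensing receptor, and GPNMB, a glycoprotein of lysosomes and the cell surface, are known from lipid-laden macrophages, and lipoprotein lipase, the product of Lpl, frees fatty acids from lipoprotein particles.

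Values are signals in linear intensity units on the authors' scale. The pooled median over the 4 arrays of probe sets other than controls, a signal of 103, served as a floor. Lower signals were raised to it, and where that happened on 1 side the fold is given as "at least". A gene was counted as higher or lower at 2-fold or more. The gate genes followed the sort only in part. Cx3cr1 read 1499 for CX3CR1high macrophages, 638 for CD11b+ cells, 291 for CX3CR1- cells and 65.2 for DCs, and Itgam, the CD11b gene, fell short of the floor (45.9) only in DCs. Itgax, which encodes CD11c, stood at 1864 in CD11b+ cells although these were sorted as CD11c-, close to the 1826 of the CX3CR1high macrophages. The CD103 gene Itgae was highest in DCs (4962). The ratio of 3' to 5' control signals grows as RNA is less intact. For Gapdh it ran from 0.791 in DCs to 3.40 in CX3CR1- cells, and for Actb from 1.11 in DCs to 3.18 in CD11b+ cells. The part of RNA quality in the results was not tested. Since each array holds RNA of many cells, fewer cells of a type and less RNA per cell cannot be told apart.

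The promoters of 4 of the genes are shown first, because these genes were at least 4.65-fold lower in DCs than in CX3CR1high macrophages and because 2 of them share a motif there. Apoe also met this limit (7.44-fold) and has windows, but they are not printed. RefSeq windows (GRCm38.p6) of 250 bases before to 50 after a transcription start were on hand for 7 of the 10 genes, 12 windows in all, and none for Abcg1, Lpl and Fabp4. For the 4 genes shown, the first 260 bases are printed, on the gene's strand. They lie at chr4:53159886-53160145 (minus strand) for Abca1, chr4:86670050-86670309 (minus strand) for Plin2, chr6:49036268-49036527 (plus strand) for Gpnmb and chr17:48346151-48346410 (plus strand) for Trem2. Capitals mark CACGTG, the E-box bound by helix-loop-helix factors, and in Abca1 also a direct repeat of the kind that LXR binds.
Abca1: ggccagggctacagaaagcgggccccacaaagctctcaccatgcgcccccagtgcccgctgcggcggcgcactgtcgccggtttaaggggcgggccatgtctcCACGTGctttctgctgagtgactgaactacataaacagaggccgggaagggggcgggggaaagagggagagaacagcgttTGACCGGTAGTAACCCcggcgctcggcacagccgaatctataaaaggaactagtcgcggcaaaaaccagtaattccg
Plin2: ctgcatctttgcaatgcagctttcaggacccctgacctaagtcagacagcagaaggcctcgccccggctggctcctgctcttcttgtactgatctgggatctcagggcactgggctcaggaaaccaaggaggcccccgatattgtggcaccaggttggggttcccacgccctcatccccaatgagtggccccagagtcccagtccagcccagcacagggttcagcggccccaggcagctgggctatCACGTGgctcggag
Gpnmb: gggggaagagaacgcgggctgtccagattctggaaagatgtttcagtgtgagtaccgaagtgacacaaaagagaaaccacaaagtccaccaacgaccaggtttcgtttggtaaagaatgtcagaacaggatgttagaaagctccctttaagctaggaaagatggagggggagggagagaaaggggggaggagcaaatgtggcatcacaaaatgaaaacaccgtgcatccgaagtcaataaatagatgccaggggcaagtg
Trem2: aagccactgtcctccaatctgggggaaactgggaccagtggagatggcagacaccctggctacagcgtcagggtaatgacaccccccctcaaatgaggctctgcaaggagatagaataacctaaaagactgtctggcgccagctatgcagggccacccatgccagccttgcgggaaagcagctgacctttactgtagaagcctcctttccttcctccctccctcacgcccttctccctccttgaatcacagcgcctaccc
On both strands of the whole windows, CACGTG was found in Abca1, at -147 to -142 from the start, and in Plin2, where it spans the start from -4 to 2, and in no other of the 7 genes with a window. It is in 7.15% of the 32851 windows of this length in the table. The direct repeat, which is AGGTCA followed after 4 free bases by AGGTCA again, with up to 2 mismatches in its 12 fixed bases, held by 3.02% of all windows, had 0 matches in the 12 windows. With up to 3 mismatches, a limit chosen after the Abca1 sequence had been seen and met by 21.9% of all windows, Abca1 matched at -67 to -52 (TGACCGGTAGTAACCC, on the opposite strand), and among the others only Pparg did. TATAAA, in 13.6% of all windows, was in Abca1 at -29 to -24, and in windows of Apoe and Pparg. CpG pairs numbered 26 in the Abca1 window, 10 in that of Plin2, 9 in that of Gpnmb and 5 in that of Trem2, against a median of 7 over all windows. A match describes these letters and is no evidence of binding.

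Across the populations all 10 genes had their lowest signal in DCs, and 7 had their highest in CX3CR1high macrophages. Over the 7847 genes that reached the floor on any array, 38.2% were lowest in DCs and 25.9% highest in CX3CR1high macrophages. The order CX3CR1high macrophages, CD11b+ cells, CX3CR1- cells, DCs was shared by 6 of the 10, which are Abca1, Apoe, Trem2, Nr1h3, Plin2 and Fabp4, and by 11.3% of those 7847 genes. Abcg1 and Pparg were highest in CD11b+ cells and Lpl in CX3CR1- cells. The only spread at hand is the SD of log2 ratios between different probe sets of a gene, 0.31 to 0.52 depending on the pair, which holds no difference between mice or sorts. Of the 20 steps between neighbours among the 3 highest populations of each gene, 7 were within this SD. Of the 10 steps down to the lowest population, only that of Pparg was.

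**Figure D1:**
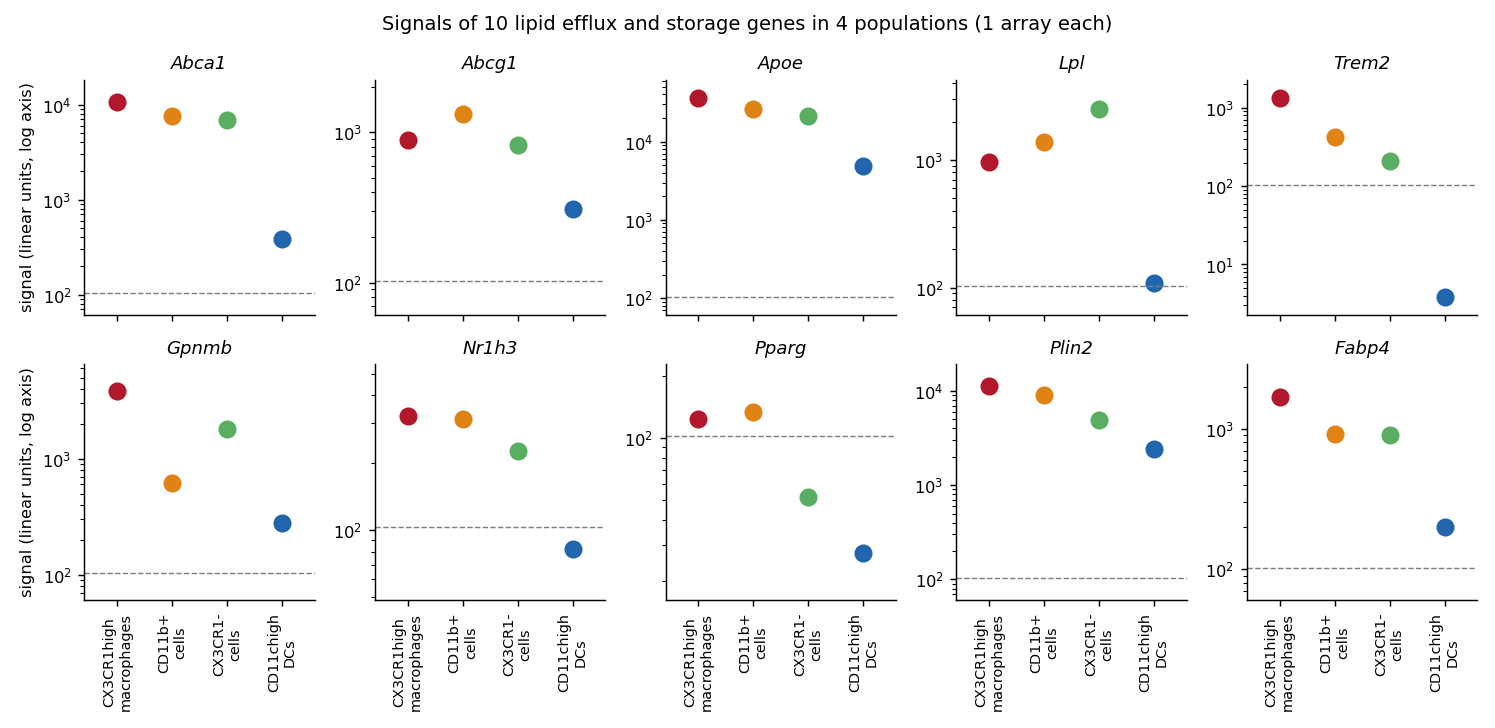
Signal of each of the 10 genes (linear units on a log axis, 1 point per population, 1 array each, no error bars), with the floor of 103 as a dashed line. The DC point is the lowest in every panel, the panels of Abcg1, Lpl, Gpnmb and Pparg depart from the order that the other 6 share, and Trem2, Nr1h3 and Pparg fall under the floor in DCs.

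The nuclear receptors had low signals. Nr1h3 (probe set 1450444_a_at) stood at 324 in CX3CR1high macrophages, 315 in CD11b+ cells, 227 in CX3CR1- cells and 82.6, under the floor, in DCs. The first 2 of these differed by 1.03-fold, and the CX3CR1high macrophages were at least 3.15-fold above the DCs. Pparg (1420715_a_at) reached the floor only in CD11b+ cells (135) and the CX3CR1high macrophages (124), and lay under it in CX3CR1- cells (51.6) and the DCs (27.5). None of its ratios reached 2-fold, and the largest bound was at least 1.31-fold. With so little signal over the floor, differences in Pparg were hardly measurable here.

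The sterol exporters and their acceptor were all lowest in DCs. Abca1 (1421840_at), which hands cholesterol and phospholipid to apolipoproteins, stood at 10738 in CX3CR1high macrophages, 7554 in CD11b+ cells, 6799 in CX3CR1- cells and 389 in DCs. The 3 CD11b-bearing populations thus lay within 1.58-fold of each other and the DCs 17.5-fold to 27.6-fold below them. Abcg1 (1423570_at), which exports sterol to mature lipoprotein particles, followed another order, with 1315 in CD11b+ cells, 885 in CX3CR1high macrophages, 826 in CX3CR1- cells and 311 in DCs. Its span was 4.23-fold, and the CX3CR1high macrophages were 1.49-fold below the CD11b+ cells. Apoe (1432466_a_at) stood at 36172 in CX3CR1high macrophages, 26335 in CD11b+ cells, 21021 in CX3CR1- cells and 4864 in DCs. It spanned 7.44-fold. The highest of these values compares with a top signal of 44238 on that array.

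Lpl (1415904_at) was the one gene of the 10 with its highest signal in CX3CR1- cells. It stood at 2513 there, 1378 in CD11b+ cells, 964 in CX3CR1high macrophages and 108 in DCs, just over the floor. The CX3CR1- cells were 2.61-fold above the CX3CR1high macrophages, 1.82-fold above the CD11b+ cells and 23.2-fold above the DCs. Each of these steps was larger than the spread between probe sets.

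Trem2 and Gpnmb had the largest ratios of CX3CR1high macrophages over CD11b+ cells among the 10 genes. Trem2 (1421792_s_at) stood at 1344 in CX3CR1high macrophages, 428 in CD11b+ cells, 209 in CX3CR1- cells and 3.81 in DCs. The CX3CR1high macrophages were 3.14-fold above the CD11b+ cells, 6.44-fold above the CX3CR1- cells and at least 13.1-fold above the DCs. Gpnmb (1448303_at) stood at 3822 in CX3CR1high macrophages, 1809 in CX3CR1- cells, 623 in CD11b+ cells and 276 in DCs. The first was 2.11-fold, 6.14-fold and 13.8-fold above the others in that order. The genes parted in CX3CR1- cells, which were 2.90-fold above the CD11b+ cells for Gpnmb and 2.05-fold below them for Trem2. With the mean over both Trem2 probe sets, the log2 ratio of the CX3CR1high macrophages was 0.81 over the CX3CR1- cells, under 2-fold. It was at least 0.88 over the CD11b+ cells and over the DCs, whose means fell under the floor. These bounds do not show whether 2-fold was passed.

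Both storage genes were highest in CX3CR1high macrophages and lowest in DCs. Plin2 (1448318_at) stood at 11254 in CX3CR1high macrophages, 9079.7 in CD11b+ cells, 4934 in CX3CR1- cells and 2420.1 in DCs, the smallest span (4.65-fold) after Pparg, Nr1h3 and Abcg1. Its first 2 values lay within the spread between probe sets. Fabp4 (1417023_a_at) stood at 1693, 919, 906 and 199 in the same order. The CX3CR1high macrophages were 1.84-fold and 1.87-fold above the CD11b+ and CX3CR1- cells, and 8.51-fold above the DCs. The CD11b+ and CX3CR1- cells differed by 1.01-fold, within the spread between probe sets, and another Fabp4 probe set has them the other way round, so their order is not settled.

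Set pair by pair, the DCs stood apart from each CD11b-bearing population. Over the DCs, the CX3CR1high macrophages had 9 of 10 genes higher and 0 lower, where 17.4% of all genes with a ratio were higher and 10.2% lower. The median log2 ratio of the 10 was 2.99, against 0.02 over all genes, and 0.361% of genes were at or over the ratio of Abca1. Over the DCs, the CD11b+ cells also had 9 of 10 higher and 0 lower (17.0% and 10.4% of all genes), with a median of 2.07 against 0.07. The CX3CR1- cells had 9 of the 9 with a ratio higher and 0 lower than the DCs (13.7% and 8.70% of all genes), with a median of 2.11 against 0.04. These comparisons share the DC array, so they are not independent of each other. In the CX3CR1- cells, Trem2 (at least 2.03-fold), Plin2 (2.04-fold) and Nr1h3 (at least 2.20-fold) passed 2-fold over the DCs by little. In the DCs the median of all probe sets was lower than in CX3CR1high macrophages by 0.31 log2 units. When all arrays were set to equal medians, the median of the 10 genes over the DCs was 2.68 for the CX3CR1high macrophages, and that of all genes moved from 0.02 to -0.27. Gpnmb in CD11b+ cells (log2 ratio 0.86) and Plin2 in CX3CR1- cells (0.81) were then under 2-fold over the DCs, which leaves 8 genes higher in each of these populations.

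Among the CD11b-bearing populations the 10 genes differed less. Over the CX3CR1- cells, the CX3CR1high macrophages had Trem2, Plin2 (2.28-fold) and Gpnmb higher and Lpl lower, 3 and 1 of 10, with 8.56% and 6.54% of all genes. The median log2 ratio was 0.72 against 0.02 over all genes, and 9 of the 10 ratios were above 1-fold. With equal medians Gpnmb was just under 2-fold in this pair (log2 ratio 0.99), which leaves 2 higher. Over the CD11b+ cells, 2 of 10 were higher, Gpnmb and Trem2, and 0 lower, with 4.66% and 5.83% of all genes. The median was 0.38 against -0.02. Of all genes with a ratio in this pair, 0.399% were at or over that of Gpnmb and 1.46% at or over that of Trem2. Between the CX3CR1- and the CD11b+ cells 1 of 10 was higher, Gpnmb, and 1 lower, Trem2, with 3.55% and 5.19% of all genes, so both counts are close to the background. Trem2 passed that limit by little and missed it with equal medians and with quantile normalization. Its ratio changed sign with the mean over its probe sets (log2 ratio at least 0.065 against -1.04). Plin2 (1.84-fold lower) and Lpl (1.82-fold higher) missed the limit.

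**Figure D2:**
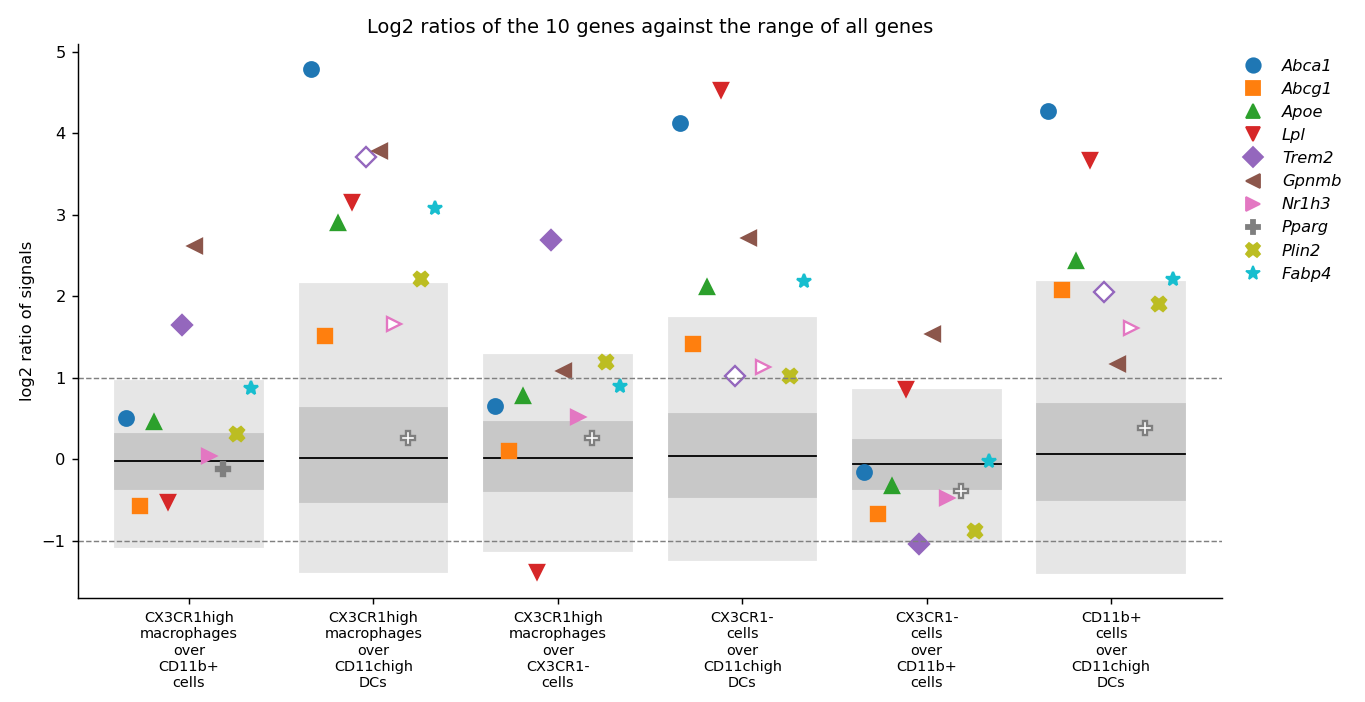
Log2 ratio of signals of the 10 genes in the 6 pairs of populations (symbols; open symbols are bounds set by the floor, dashed lines mark 2-fold). Grey boxes hold the middle 50% and 90% of all genes with a ratio and black lines their medians. Most symbols lie above the dark box in the 3 pairs over the DCs, and Lpl falls below -1 in the CX3CR1high over CX3CR1- pair.

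Other probe sets of the same genes were read where they exist. Abca1 has 3, and the other 2 were weak: 1 stood at 256 in CX3CR1high macrophages and 29.5 to 100.4 elsewhere, and the other at 117 against 1.05 to 44.4. Both reached the floor only in CX3CR1high macrophages. The 27.6-fold ratio of Abca1 over the DCs therefore rests on 1 probe set, and the others give at least 2.49-fold and at least 1.14-fold. With the mean over the 3 sets, the log2 ratio of Abca1 in CX3CR1high macrophages was at least 2.74 over the DCs, whose mean fell under the floor. It was 1.09 over the CD11b+ cells and 1.51 over the CX3CR1- cells, so that Abca1 passes 2-fold in these 2 pairs. The other Lpl probe set stood at 717 in CX3CR1- cells, 279 in CD11b+ cells, 206 in CX3CR1high macrophages and 27.1 in DCs. It shows the same order of populations as the first. A second Fabp4 probe set gave 481 in CX3CR1high macrophages, 258 in CD11b+ cells, 271 in CX3CR1- cells and 92.6 in DCs, while 2 further ones were under the floor on all 4 arrays. The other probe set of Trem2 was under the floor on all arrays (7.86 to 55.5), so each Trem2 ratio rests on 1 probe set, of a type (_s_at) that may match transcripts of more than 1 gene. Abcg1, Apoe, Gpnmb, Nr1h3, Pparg and Plin2 each have a single probe set here, and those used for Apoe, Nr1h3, Pparg and Fabp4 match several transcripts of the gene (_a_at).

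**Figure D3:**
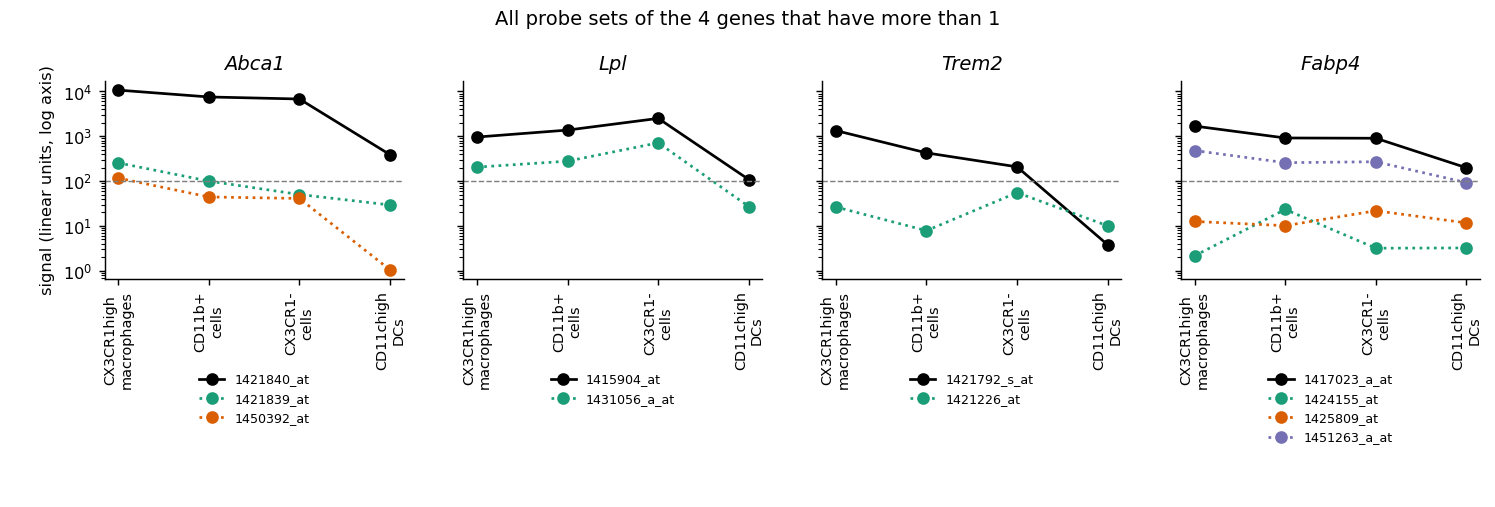
Signals (linear units on a log axis, 1 array per population) of all probe sets of Abca1, Lpl, Trem2 and Fabp4; solid black lines are the sets used for the gene, dotted lines the others, the dashed line is the floor of 103. The Lpl sets run in parallel and peak in CX3CR1- cells, and the dotted Trem2 set stays under the floor.

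The wider pathway was read from 11 lists of lipid genes, chosen like the 10 with earlier results of these data known. The counts below are to be read against the shares of all genes given above for the CX3CR1high macrophages: 17.4% higher and 10.2% lower over the DCs, 8.56% and 6.54% against CX3CR1- cells, and 4.66% and 5.83% against CD11b+ cells. The matching medians over all genes are 0.02, 0.02 and -0.02. Among LXR partners and other LXR targets, 3 of 10 were higher and 2 lower in CX3CR1high macrophages than in DCs. Pltp, which transfers phospholipid between lipoproteins, was 9.26-fold higher (7862 against 849). Apoc2, the cofactor of lipoprotein lipase, was at least 6.47-fold higher (665 against 62.1) and was highest in CD11b+ cells (1494). Mylip, which sends the LDL receptor to degradation, was 3.56-fold higher. Scd1 and Scd2, which make unsaturated fatty acids, went the other way. Scd1 stood at 187 in CX3CR1high macrophages, 268 in CD11b+ cells, 514 in CX3CR1- cells and 1126 in DCs, so its order is the reverse of that of Abca1. The median log2 ratio of this list was 0.16.

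Lysosomal lipid genes were higher in CX3CR1high macrophages in 8 of 11 over the DCs, 5 of 11 over the CX3CR1- cells and 3 of 11 over the CD11b+ cells, and lower in 0 of 11 in each. The medians were 1.24, 0.73 and 0.40, against 0.02, 0.02 and -0.02 over all genes, of which 17.4%, 8.56% and 4.66% were higher. Npc1, which moves cholesterol out of the lysosome, stood at 1025 in CX3CR1high macrophages, 486 in CD11b+ cells, 223 in CX3CR1- cells and 143 in DCs. The phospholipase Pla2g15 was at least 12.3-fold above the DCs and the ceramidase Asah1 3.58-fold above the CX3CR1- cells. The count over the DCs was 5 with equal medians. Of the lipid-laden macrophage genes, 7 of 10 were higher and 1 lower than in DCs, with a median of 1.33, and 5 were higher with equal medians. Ctsd, a lysosomal protease, was 22.3-fold higher, and Cd9, a tetraspanin, was 2.62-fold lower.

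Uptake receptors were mixed. Over the DCs 3 of 7 with a ratio were higher and 0 lower (median 0.96), among them the scavenger receptor Msr1 (22.7-fold) and the lipoprotein receptor Lrp1 (11.7-fold). Cd36, a fatty acid receptor, stood at 4876 in CX3CR1high macrophages, 1488 in CD11b+ cells, 1004 in CX3CR1- cells and 2932 in DCs. Olr1, a receptor for oxidized LDL, was highest in CX3CR1- cells, like Lpl, at 1185 against 693 in CD11b+ cells, 201 in CX3CR1high macrophages and 101, under the floor, in DCs. Droplet and ester storage genes had 2 of 10 higher and 0 lower over the DCs (median 0.72), where 17.4% of all genes were higher, so this count is near the background. Over the CD11b+ cells 1 was higher, Hilpda, and 3 lower, Dgat1, Dgat2 and G0s2 (median -0.32). Over the CX3CR1- cells 0 were higher and 2 lower (median -0.09). Those 2 were Dgat1, which makes triglyceride (1415 against 6886), and G0s2, an inhibitor of its breakdown (174 against 719.8). Dgat1 was read from a single probe set, of the type (_s_at) that may match transcripts of more than 1 gene.

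Sterol synthesis and fatty acid oxidation genes showed no such step over the DCs. Of 11 sterol synthesis genes with a ratio, 1 was higher and 2 lower in CX3CR1high macrophages, with a median of -0.29. Fdps, which makes farnesyl diphosphate, stood at 399.5 against 1986 in DCs. Srebf2, the regulator of sterol synthesis, stood at 466 against 1309, but its other probe set gave 259 against 226. Of 11 oxidation genes 0 were higher and 2 lower, with a median of -0.36. The mitochondrial carnitine carrier Slc25a20 stood at 1157 in CX3CR1high macrophages and 10477 in DCs, and the dehydrogenase Acadl at 1017 and 2988.

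In the remaining lists few genes could be read. Of 6 other fatty acid binding proteins only Fabp5 was well over the floor on all arrays, at 12151 in CX3CR1high macrophages, 10153.0 in CD11b+ cells, 13748 in CX3CR1- cells and 5379 in DCs. Among other ABC lipid transporters 2 of 6 with a ratio, Abcg2 (515 against 61.1) and Abcg3 (4.67-fold), were higher over the DCs and 0 lower (median 0.15). Ppara and Ppard were under the floor on all arrays, and 0 of the 3 PPAR family or coactivator genes with a ratio passed 2-fold over the DCs (median 0.47). Of the TREM family and signalling genes 1 of 6 was higher, Ms4a7 (16.9-fold), and 0 lower. Tyrobp, the adaptor through which TREM2 signals, ran from 10400.2 in DCs to 19684 in CD11b+ cells, within 2-fold. Its order differed from that of Trem2 only between the CD11b+ cells and the CX3CR1high macrophages (17075). That step, 1.15-fold, lay within the spread between probe sets.

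**Figure D4:**
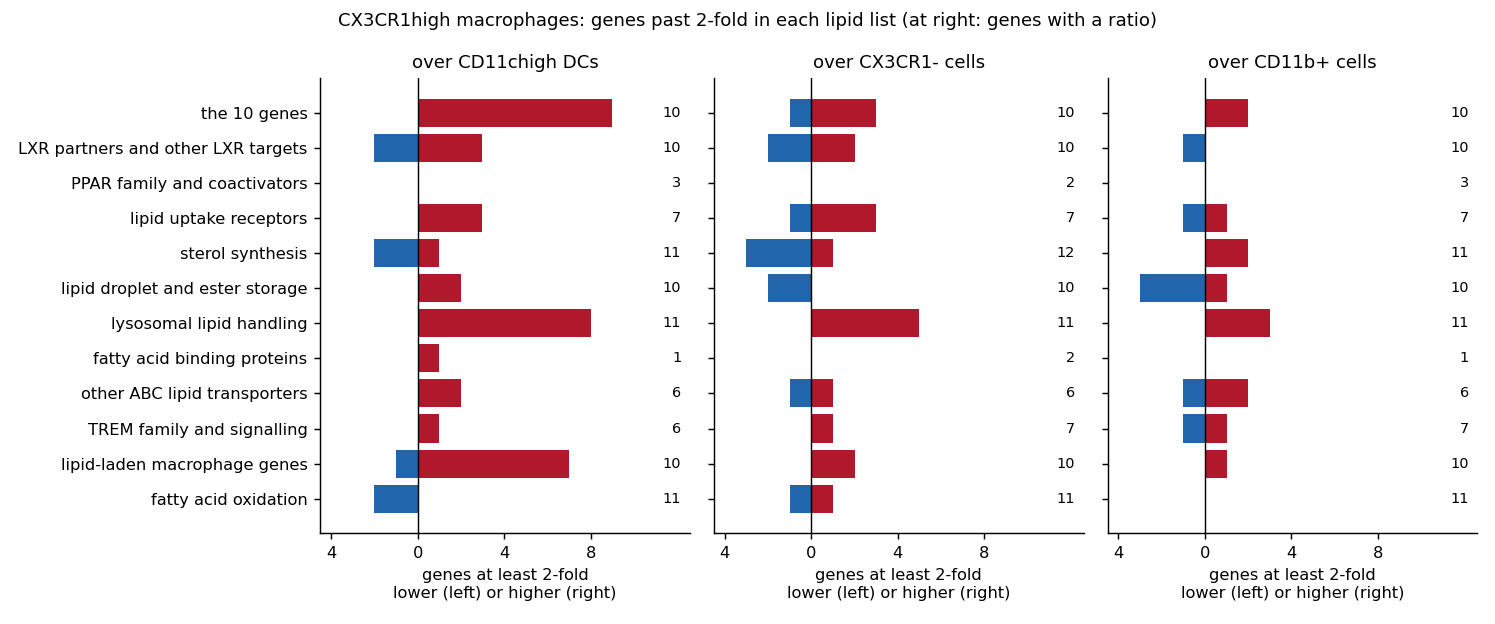
Number of genes at least 2-fold higher (right, red) or lower (left, blue) in CX3CR1high macrophages than in each other population, for the 10 genes and the 11 lipid lists, with the number of genes that have a ratio at the right of each panel. Over the DCs the long red bars are those of the 10 genes (9 of 10), lysosomal lipid handling (8 of 11) and lipid-laden macrophage genes (7 of 10).

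The genes whose pattern was closest to a member were taken as those with the smallest largest difference, over the 4 populations, of log2 signals centred on the gene's own mean. The 4 points are few for such a search over 7847 genes, and the names describe these arrays only. Differences are given only where gene and member were both at or over the floor on all 4 arrays. Closest to Abca1 were Ecm1 (largest difference 0.17) and C1qc (0.47), to Abcg1 Nab2 (0.10) and Ahnak (0.11), and to Apoe Tmem176a (0.07). For Lpl they were Dusp6 (0.42) and Zeb2 (0.50), for Plin2 Lgals8 (0.04) and Atf3 (0.06), and for Fabp4 Gbp7 and Ccr1 (both 0.14). Gpnmb had no near match, with Pgf at 0.54, Dmbt1 at 0.54 and Oasl1 at 0.58. The other names found by the rule rest on a DC signal raised to the floor. That raised value entered the centring and the largest difference, so the likeness of these genes in DCs was not measured. These genes are Sh3bp5 for Abca1 (46.3 in DCs), Sh3d19 for Abcg1 (41.2), Cd33 and Itgam for Apoe (91.0 and 45.9), Serpinb2 for Lpl (31.7), Wls for Plin2 (93.7) and Rusc2 for Fabp4 (48.0). Trem2 and Nr1h3 are themselves under the floor in DCs, so their own DC signals were raised to it in the search. Their nearest genes were Hbegf, Bcar3 and Blvrb for Trem2, and Ubtd1, Calcrl and Rhbdf1 for Nr1h3. Of these, Bcar3 (77.6) and Rhbdf1 (100.2) were also under the floor in DCs, and the others were over it. Among the 10 themselves, Apoe and Fabp4 were closest (0.24).

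Markers of other cells moved with some of these differences, and their part in them was not tested. Macrophage markers (10 of 11 listed were measured) summed to 170161 in CX3CR1high macrophages, 112902 in CD11b+ cells, 82764 in CX3CR1- cells and 12895 in DCs, which is the order shared by 6 of the 10 genes. All 10 were over the floor in the first 3 and 7 in DCs. Dendritic cell markers ran the other way, from 5992 in CX3CR1high macrophages to 43948 in DCs, and stood at 24130.1 in CX3CR1- cells. Epithelial markers summed to 17114 in CX3CR1high macrophages and 3042 to 7392 elsewhere, with 10 of 11 over the floor in the former and 8 or 9 in the others. Fibroblast and muscle markers summed to 63569.7 in CD11b+ cells, 23591 in CX3CR1- cells, 18102.5 in CX3CR1high macrophages and 5506 in DCs. Monocyte markers (5 of 8 measured) summed to 40529 in CD11b+ cells and 12275 to 22746 elsewhere. Of these, Ccr2, Chil3 and Vcan were highest in CD11b+ cells, F13a1 in CX3CR1high macrophages (15238 against 8148 in CD11b+ cells) and S100a4 in CX3CR1- cells (19758 against 16540). The sum for neutrophils and eosinophils was 9420.4 in CD11b+ cells and 346 to 2232 elsewhere, and was carried by S100a8 (4058) and S100a9 (3416). The eosinophil markers Siglecf (544 against 203) and Ccr3 (141 against 52.8, which is under the floor) were higher in CX3CR1- than in CD11b+ cells. The eosinophil marker Prg2 was lower there (110 against 124), and Epx was under the floor on every array. Mast cell markers ran from 259 to 2322 with 1 of 8 over the floor on every array, and lymphocyte markers (9 of 10 measured) from 11569 in DCs to 36573 in CD11b+ cells. Jchain alone gave 10117.5 and 34144 of these sums, and Cd3e, Cd3d, Ms4a1, Ncr1 and Nkg7 were under the floor on every array. Endothelial markers, which matter for Fabp4 because capillary endothelium makes it, ran from 1108 in DCs to 2545 in CX3CR1high macrophages, with Cdh5 at 74.2 to 222. Of 8 with a ratio, 4 were higher in CX3CR1high macrophages than in DCs (17.4% of all genes). The 1 lower (10.2% of all genes) was Vwf, at 204 against 574. Adipocytes also make Fabp4, Lpl and Pparg. Of the 6 measured adipocyte markers, Adipoq (at most 20.4), Retn, Lep, Cidec and Pck1 were under the floor on all arrays, and only Lipe reached it. A part of adipocyte RNA in these signals was not tested.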

How the data were processed

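Each of 4 sorted populations gave biotin-labelled material for 1 Affymetrix array with the 3' IVT Express kit, as the labels' protocols state. The authors deposited one intensity per probe set on a linear scale, and the submitters' processing notes name MAS5, with no version given. In the deposited values the mean with 2% trimmed from each end was 500.3 on all 4 arrays, so each array carries a scaling to a common mean, and ratios assume that most genes do not differ between populations. No further normalization was applied. Detection calls and scanner files were not used here.

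Of 22690 probe sets, 64 were controls, 20380 named 1 gene in GEO's platform annotation, 691 several and 1555 none. Only those naming 1 gene were used. A gene's value was taken from its brightest probe set by mean log2 signal, with _x_at sets used only where there was no other. Signals under the pooled median (103) were set to it, pairs with both sides under it got no ratio, and the limit was 2-fold. Shares over all genes with a ratio are the background. The members, the 11 lipid lists (137 genes) and 10 marker lists (97 genes) were chosen with earlier results of these data known. A gene of a lipid list could be named if it was at least 2-fold apart between any populations; Tyrobp, Ppara and Ppard fall outside this rule and were chosen after their values were seen. As genes most like a member, the 3 nearest were named for each member with a span of at least 2-fold, passing over Riken and predicted names. Alternatives were 4 other treatments of low signals, 2 normalizations, 2 ways to choose probe sets and limits of 1.5-fold and 4-fold. The ratio and count steps were tested on simulated data. Python 3.11.15 with numpy 2.4.6, pandas 2.3.3 and matplotlib 3.10.9 was used.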

Additional observations from a re-analysis of the deposited data

How the results depend on the processing

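No paired analysis was possible because each population has 1 array, and for the same reason no array could be left out of a comparison. Of the counts of the 10 genes past 2-fold, those that moved by over 1.5 times were as follows. Shared probe sets here means those ending in _s_at, _x_at or _a_at, although _a_at sets match several transcripts of the same gene. Without shared probe sets only 5 genes could be read. Of these, 5 of 5 were higher than the DCs in CX3CR1high macrophages, the CD11b+ cells and the CX3CR1- cells, against 9 in each. That setting left 1 gene higher over the CD11b+ cells in CX3CR1high macrophages. At 4-fold the counts were 5 in CX3CR1- cells over the DCs, 1 in CX3CR1high macrophages over the CD11b+ cells, and 1 higher and 0 lower over the CX3CR1- cells. At 1.5-fold the CX3CR1high macrophages had 6 higher than the CX3CR1- cells. Between the CX3CR1- and CD11b+ cells, where the counts at 2-fold were 1 and 1, 2 were higher at 1.5-fold or with the mean over probe sets and 0 at 4-fold. In that pair 3 were lower at 1.5-fold, 2 with the floor at the 25th percentile or with none, and 0 at 4-fold, with the floor at the 75th percentile, with either normalization, with the mean over probe sets, or without shared probe sets. The ratio of Trem2 in that pair changed sign with the mean over its probe sets (log2 ratio at least 0.065 against -1.04). The other set, under the floor on all arrays, read 55.5 in CX3CR1- cells and 7.86 in CD11b+ cells. With the mean over its 3 sets, Abca1 in CX3CR1high macrophages over the DCs gave a log2 ratio of at least 2.74 against 4.79. The former is a bound, since the DC mean fell under the floor, so it does not show a smaller ratio. With no floor, Trem2 in CX3CR1high macrophages over the DCs gave 8.46 against a bound of 3.71. Under equal medians and under quantile normalization all single ratios of the 10 genes moved by less than the spread between probe sets, but with equal medians 4 calls near 2-fold were lost, as given with the results for Gpnmb, Plin2 and Trem2. Without replicates, no ratio has an error over mice, and signals near 103 set the limit of what could be read for Pparg and Nr1h3.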
